A study of Mus musculus with 42 samples.

Results

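Antioxidant and metallothionein genes were followed in cultured mouse synovial fibroblasts, which make the matrix and fluid of the joint's inner lining. The set holds 10 genes, picked by symbol, namely Hmox1, Slc7a11, Gclc, Gclm, Gsr, Txnrd1, Srxn1, Nqo1, Mt1 and Mt2. They are measured by 20 of the 45101 probe sets on the array, and make up 10 of the 18194 genes tested. No measured value entered their choice by symbol, although earlier results of these data were known when the set was drawn up.

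The study set out to find how cells without TSG-6, a secreted protein that binds hyaluronan and is encoded by Tnfaip6, differ from wild-type cells in their expression and in their response to inflammatory agents. Cells came from female BALB/c mice with arthritis induced by cartilage proteoglycan in DDA adjuvant, so that every group, untreated ones included, stems from arthritic joints. They were grown for up to 6 passages and starved of serum overnight. The 27 arrays labelled TSG-6 knockout (KO) comprised 4 cultures with TNFa at 5 ng/ml, 4 with LPS at 200 ng/ml, 3 with recombinant mouse TSG-6 at 120 ug/ml, 4 with hyaluronan (HA) at 24 ug/ml, 4 with TSG-6 and HA together at these doses, and 8 untreated, all for 12 h. The 15 wild-type (WT) arrays comprised 2 cultures with each of the same 5 treatments and 5 untreated. The labels speak of biological replicates but do not tie cultures to animals, so p-values measure only the spread between these cultures.

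Most of these genes belong to the antioxidant response, in which the transcription factor NRF2 escapes its inhibitor KEAP1 when cells meet oxidants or electrophiles and binds antioxidant response elements beside its target genes. The targets supply glutathione, recycle glutathione and thioredoxin, and detoxify quinones and haem. Metallothioneins are small cysteine-rich proteins that hold zinc and copper and scavenge radicals, and are switched on through metal response elements by the zinc sensor MTF1 as well as by glucocorticoids and cytokines.

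All values below are on a log2 scale, as the distance of an array from the median of its probe set over the 42 arrays. They compare cultures within a gene and carry no absolute level, so no gene is set against another in abundance, and a marker's presence cannot be read from them. Differences are given ± SE of a limma fit across the 12 groups, and a gene is said to rise, fall or change only where its p adjusted over the 18194 genes was under 0.05.

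Some facts of the whole series bear on these genes. Tnfaip6 itself averaged -0.11 ± 0.23 in untreated KO cultures and -0.37 ± 0.16 in untreated WT cultures (SD, n = 8 and 5), a difference of 0.26 ± 0.16 with an adjusted p of 0.22, so the array does not check the genotype labels, and the sources used here do not say whether its probe set lies in the deleted part. Within either genotype the arrays form a pair of sets that appear in the data but in no label, here called culture sets, KO sets a and b with 14 and 13 arrays and WT sets a and b with 8 and 7. Of the probe sets that split a genotype by an empty gap, 12 of 25 in KO and 33 of 42 in WT made this split, so the KO sets rest on the weaker basis. In WT cultures, each treated group holds 1 array of either set. The 18S ribosomal RNA probe set, a sign of RNA or labelling quality, exceeded 1 on 10 KO and 5 WT arrays, and all 5 of those WT arrays lay in set b. The mean of 9 blood and lymphatic endothelial markers ran from -1.37 to 0.25 over the KO arrays and from 2.58 to 3.47 over the WT arrays. That of 10 fibroblast markers ran from -0.44 to 0.57 in KO and from -1.02 to -0.03 in WT arrays, and that of 8 macrophage markers from -0.44 to 0.21 in KO and from 0.07 to 0.47 in WT arrays. In bulk RNA, fewer cells of a type and less RNA per cell cannot be told apart.

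Promoters are shown for 5 of the genes, those that rose with TNFa in KO cultures and hold a motif of either family. They run from 250 bases before to 50 bases after a start site in RefSeq's GRCm38.p6 annotation, 5′ to 3′ on the gene's strand, which is the plus strand for all 5. For Mt1 and Gclm the annotated gene begins before that site, at chr8:94178883 and chr3:122245487. RefSeq's table gave promoters for 7 of the 10 genes and named none for Hmox1, Gclc and Gsr. In the metallothionein promoters, capitals mark the core of the metal response element, TGCACNC or TGCGCNC on either strand, at chr8:94172368-94172667 for Mt2 and chr8:94178839-94179138 for Mt1.
Mt2: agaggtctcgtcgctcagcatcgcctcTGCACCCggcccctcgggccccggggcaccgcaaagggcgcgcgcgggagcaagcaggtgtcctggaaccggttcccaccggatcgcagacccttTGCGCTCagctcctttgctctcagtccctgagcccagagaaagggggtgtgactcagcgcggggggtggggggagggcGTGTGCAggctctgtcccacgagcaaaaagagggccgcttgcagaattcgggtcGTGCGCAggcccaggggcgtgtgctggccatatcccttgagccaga
Mt1: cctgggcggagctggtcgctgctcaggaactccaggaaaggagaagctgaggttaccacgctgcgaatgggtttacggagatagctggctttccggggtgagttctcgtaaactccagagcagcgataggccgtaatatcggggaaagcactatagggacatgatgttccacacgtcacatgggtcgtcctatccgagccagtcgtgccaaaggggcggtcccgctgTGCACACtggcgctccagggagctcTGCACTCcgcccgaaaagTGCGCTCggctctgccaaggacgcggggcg
Mt2 holds 4 such matches and Mt1 holds 3, and 3 or more occur in 1.97% of the 32851 mouse promoters of this length in the table, while 25.7% hold at least 1. The metallothionein pair lies within a few kilobases on chromosome 8.
In the next 3 promoters, capitals mark 1 form of the core of the antioxidant response element, TGACNNNGC on either strand. Other forms of this core were not searched. The windows lie at chr2:152105274-152105573 for Srxn1, chr3:122245307-122245606 for Gclm and chr10:82858956-82859255 for the second of 3 Txnrd1 promoters in the table.
Srxn1: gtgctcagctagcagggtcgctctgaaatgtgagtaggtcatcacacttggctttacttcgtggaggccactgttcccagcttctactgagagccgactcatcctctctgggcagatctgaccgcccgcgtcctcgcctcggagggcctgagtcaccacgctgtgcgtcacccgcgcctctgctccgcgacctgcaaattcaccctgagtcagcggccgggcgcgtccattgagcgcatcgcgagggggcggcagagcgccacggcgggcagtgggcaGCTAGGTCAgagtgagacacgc
Gclm: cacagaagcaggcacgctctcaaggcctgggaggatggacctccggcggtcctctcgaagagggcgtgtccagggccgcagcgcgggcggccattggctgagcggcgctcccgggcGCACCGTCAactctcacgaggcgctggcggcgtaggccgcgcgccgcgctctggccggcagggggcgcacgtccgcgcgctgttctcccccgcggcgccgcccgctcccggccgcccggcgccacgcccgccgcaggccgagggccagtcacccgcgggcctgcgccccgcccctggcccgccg
Txnrd1: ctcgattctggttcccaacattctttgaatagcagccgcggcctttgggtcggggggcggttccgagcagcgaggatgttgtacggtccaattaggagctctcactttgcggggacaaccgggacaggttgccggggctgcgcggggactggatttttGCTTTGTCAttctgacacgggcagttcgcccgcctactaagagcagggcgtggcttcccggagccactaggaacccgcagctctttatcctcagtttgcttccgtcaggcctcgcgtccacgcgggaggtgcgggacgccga
Each of these 3 windows holds 1 match, as does that of Mt2. Mt1 and the other Txnrd1 windows, which start at chr10:82833701 and chr10:82860091, hold 0. Of all promoters, 12.4% hold at least 1. The 5 windows shown were chosen for holding a motif of either family, so the shares of all promoters given here do not test them. Gclm also holds 3 matches to the metal element, of which 1 overlaps its antioxidant match, and Srxn1 holds 1. Neither Nqo1 nor Slc7a11 has a match to either motif in this window. These matches are descriptions of letters, and binding was not measured.

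**Figure D1:**
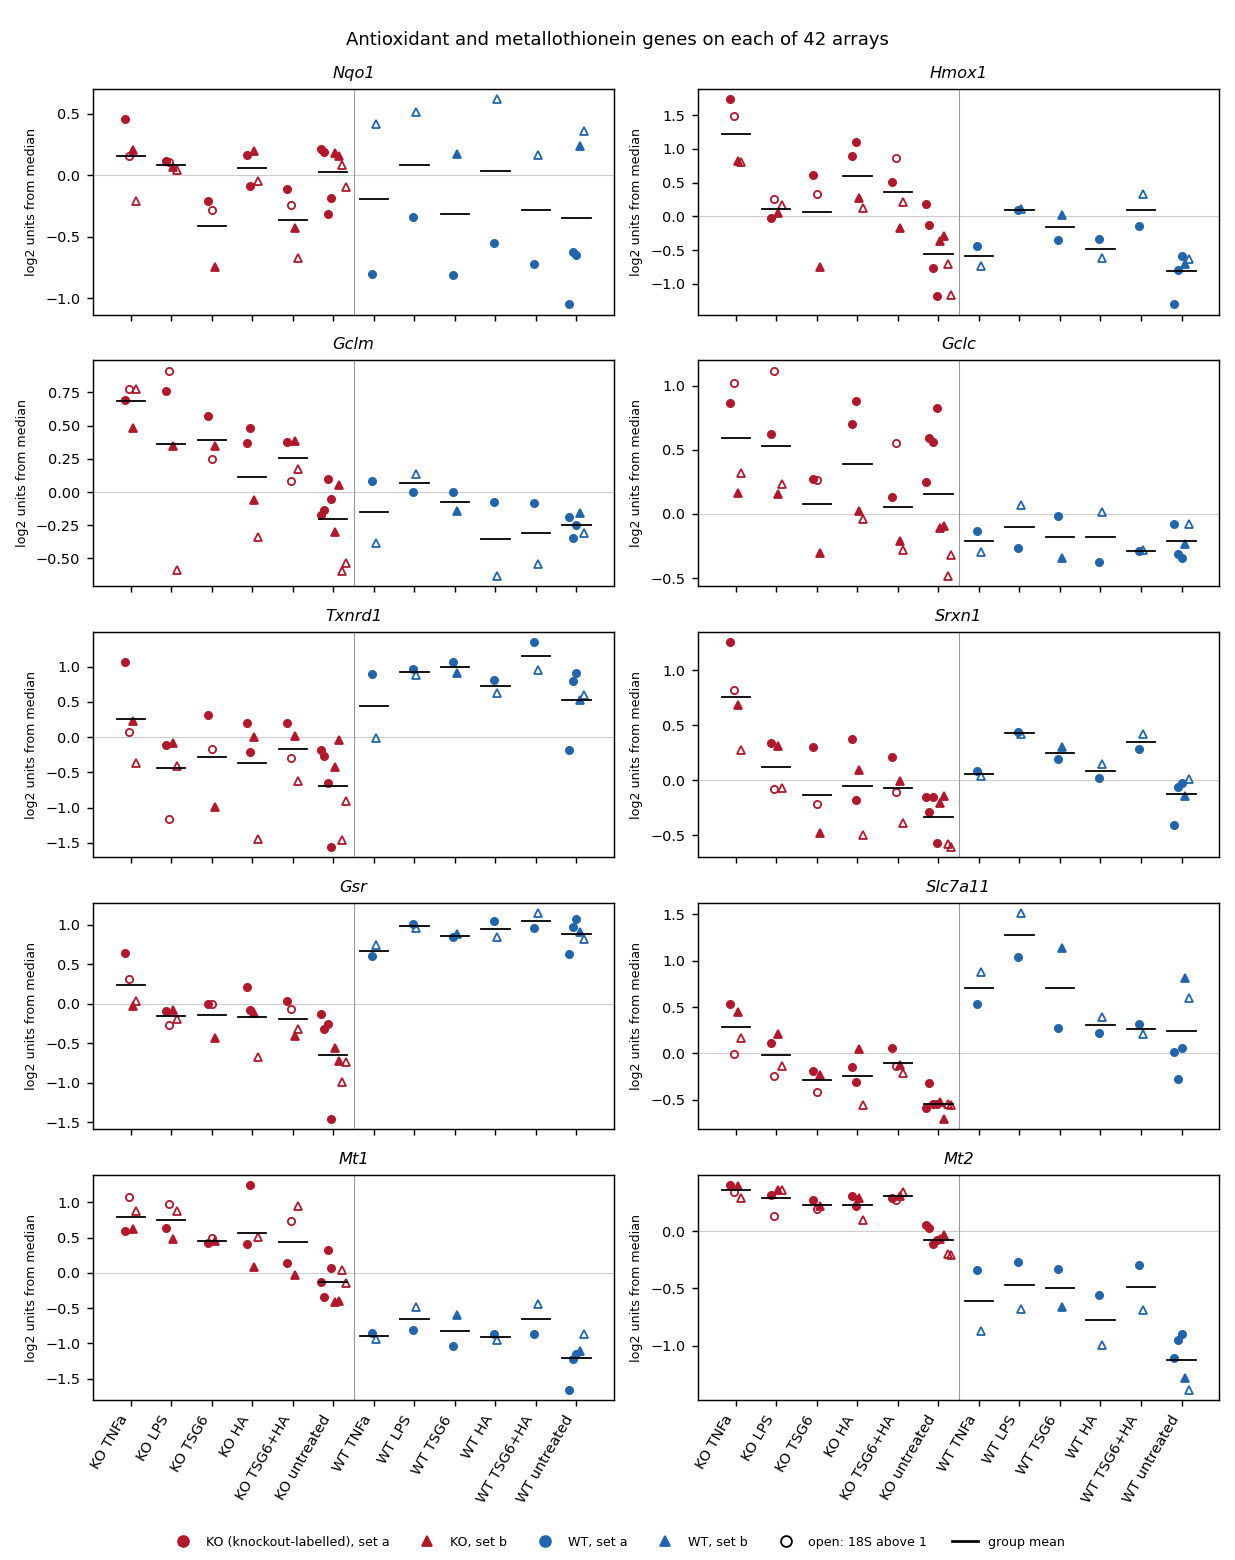
Value of each gene on each of the 42 arrays (vertical axis, log2 units from the probe set's median, one panel per gene), by group (KO groups left of the line in red, WT groups right of it in blue). Circles are culture set a, triangles culture set b, open symbols arrays with an 18S value above 1, and bars the group means. Hmox1 and Srxn1 are highest in KO cultures with TNFa, Gsr lies higher in nearly all WT arrays, and the Mt1 and Mt2 values of KO and WT arrays do not overlap.

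TNFa was the treatment under which most of these genes rose, and it did so in KO cultures. There, 8 of the 10 genes rose and none fell, against 6.71% of all genes tested that rose. All 10 differences were above 0, with a median of 0.89 beside 0.01 over all genes, and in 7 of the 10 every treated array lay above every untreated one, against 4.61% of all genes. Taken by probe set, 15 of the 20 rose, against 5.89% of the 34958 probe sets tested, and none of the others had the opposite sign to its gene.

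The other treatments of KO cultures moved fewer of them past the threshold, though most differences were again above 0. All 10 were with LPS (median 0.47) and with HA (0.31). With TSG-6 (0.35) and with TSG-6 and HA (0.45), 8 were, against 49% to 52.3% of all genes over these treatments. LPS raised Mt1 and Mt2 (2 of 10, against 0.973% of all genes), and 7 had an unadjusted limma p under 0.05, as had 10.0% of all genes. HA alone raised Hmox1 (1 of 10, against 0.429%), and TSG-6 with HA raised Hmox1, Mt1 and Mt2 (3 of 10, against 3.33%). With TSG-6 alone, 0 of 10 passed the limma test in either direction, against 4.75% of all genes, although 5 had an unadjusted p under 0.05, as had 15.7% of all genes. With the culture set as a block more genes of the whole array passed in each of these 4 comparisons. The counts were then 5 for LPS (3.96% of all genes in either direction), 3 for HA (1.68%), 7 for TSG-6 with HA (14.6%) and 3 for TSG-6 (8.46%), of which Nqo1 under both TSG-6 treatments was lower and the rest higher.

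In WT cultures, with 2 arrays per treatment, the calls were mainly Mt2. It rose with TNFa (1 of 10, against 1.41% of all genes), with TSG-6 (1 of 10, against 0.275%) and with TSG-6 and HA (1 of 10, against 0.368%). LPS raised Mt2 and Slc7a11 (2 of 10, against 0.737%). All 10 differences with LPS were above 0 (median 0.49), against 49.7% of all genes. Of these, 5 had an unadjusted limma p under 0.05, as had 6.2% of all genes. With HA, 0 of 10 passed the limma test in either direction, against 0.132% of all genes, and 1 had an unadjusted p under 0.05, as had 4.09% of all genes. When each WT treatment was fitted with its untreated group alone, without the spread shared by the other groups, 0 of 10 passed in any of the 5. Over the 10 treatment comparisons of both genotypes, Mt2 was called in 7, Hmox1 and Mt1 in 3, Slc7a11 in 2, and Gclm, Txnrd1, Srxn1 and Gsr in 1 each, while Gclc and Nqo1 were called in 0.

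**Figure D2:**
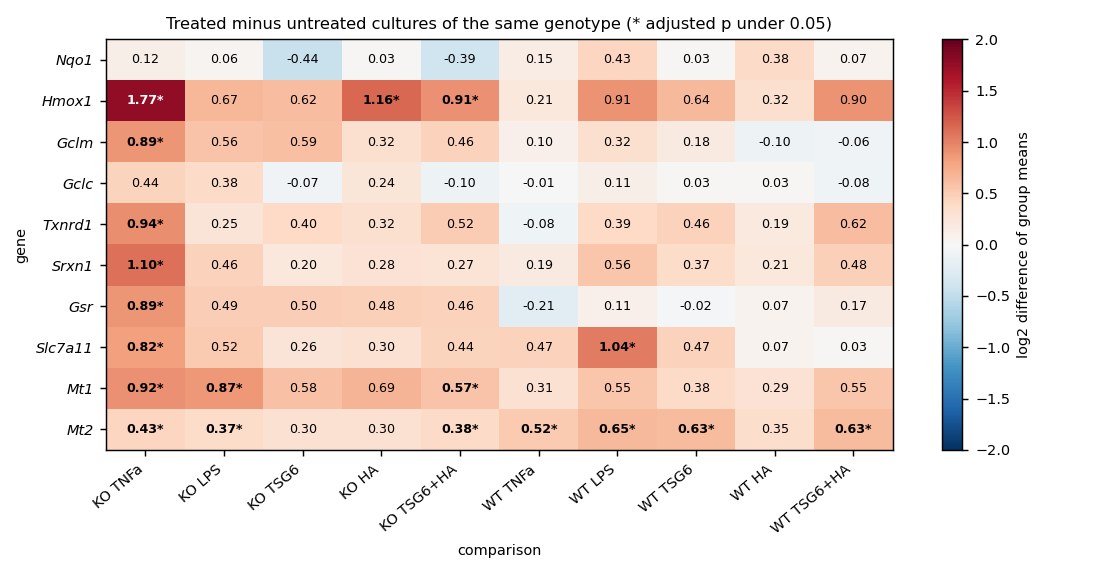
Log2 difference of group means, treated minus untreated cultures of the same genotype, for each gene (rows) and treatment (columns), with the KO treatments on the left; colour gives the same value as the printed number. Asterisks mark an adjusted p under 0.05; the KO TNFa column holds 8 of them, and the Mt2 row 7.

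Hmox1 encodes haem oxygenase-1, which breaks haem into biliverdin, iron and carbon monoxide. With TNFa, the KO cultures had values of 1.74, 1.49, 0.82 and 0.81, against -1.18 to 0.18 with a median of -0.54 in the 8 untreated KO cultures. All 4 treated arrays lay above all 8 untreated ones, and Hmox1 rose by 1.77 ± 0.24 (3.4-fold, adjusted p = 1.21e-06). Within culture set a the difference was 2.09 and within set b 1.45, both past the threshold. The WT cultures with TNFa had -0.44 and -0.74, against -1.30, -0.79, -0.59, -0.71 and -0.64 untreated. The first lay above all 5 untreated WT values and the second inside their range, and the difference was 0.21 ± 0.33 (adjusted p = 0.996).

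HA alone gave Hmox1 values of 0.90, 1.11, 0.28 and 0.13 in KO cultures, a rise of 1.16 ± 0.24 (adjusted p = 0.0111). The pair above 0.8 belongs to culture set a and the other pair to set b, and the lowest treated array overlaps the highest untreated one. Without HA replicate 1 or 2 the call was lost (1.06 with an adjusted p of 0.0877, and 0.99 with 0.101), as it was without the arrays of high 18S signal (1.19, adjusted p = 0.154). TSG-6 with HA gave 0.51, 0.87, -0.18 and 0.22, a rise of 0.91 ± 0.24 (adjusted p = 0.012) that again overlapped the untreated range. It was lost without its replicate 1 or 2 (0.86 with an adjusted p of 0.0553, and 0.74 with 0.0907), and without the arrays of high 18S signal it came to 0.59 (adjusted p = 0.406). With TSG-6 alone, values of 0.62, 0.33 and -0.75 gave a difference of 0.62 ± 0.27 (adjusted p = 0.225), which passed once the low replicate 3 was left out (1.03, adjusted p = 0.0296). In WT cultures, LPS gave 0.10 and 0.10 and TSG-6 with HA gave -0.14 and 0.33, all above the 5 untreated values, with differences of 0.91 and 0.90 that did not pass (adjusted p = 0.338 and 0.328).

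Glutathione is made from cysteine, glutamate and glycine, and Slc7a11, Gclc and Gclm serve its first steps. Slc7a11 encodes the light chain of the cystine importer. TNFa gave 0.53, -0.01, 0.44 and 0.17 in KO cultures, against -0.71 to -0.32 with a median of -0.55 in untreated KO cultures. The groups did not overlap, and Slc7a11 rose by 0.82 ± 0.15 (1.77-fold, adjusted p = 0.000169). Its second probe set, which correlates with the first at r = 0.65 over the 42 arrays, rose by 0.99 ± 0.13 in the same comparison.

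LPS raised Slc7a11 in WT cultures, with values of 1.04 and 1.51 against 0.01, -0.28, 0.06, 0.81 and 0.59 without treatment, a difference of 1.04 ± 0.21 (2.05-fold, adjusted p = 0.00398). Both treated arrays lay above all 5 untreated ones, among which the 2 arrays of culture set b were the highest. The second probe set gave 0.70 ± 0.18 (adjusted p = 0.0521), and the call was lost without LPS replicate 2 (0.80, adjusted p = 0.365) and without the arrays of high 18S signal, of which that array is one (0.89, adjusted p = 0.332). In KO cultures, LPS gave 0.11, -0.25, 0.21 and -0.14, above all 8 untreated values, with a difference of 0.52 ± 0.15 (adjusted p = 0.0793, or 0.00705 with the culture set as a block).

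Gclc and Gclm encode the catalytic and the modifier subunit of glutamate-cysteine ligase, the rate-limiting enzyme of glutathione synthesis. Gclm stood at 0.69, 0.78, 0.48 and 0.78 in KO cultures with TNFa, against -0.59 to 0.10 with a median of -0.15 in untreated ones, without overlap. Gclm rose by 0.89 ± 0.18 (1.85-fold, adjusted p = 0.000505), and its second probe set rose by 1.03 ± 0.15. With LPS, 3 KO cultures stood at 0.76, 0.91 and 0.35 and replicate 4 at -0.59, and the difference of 0.56 ± 0.18 (adjusted p = 0.125) passed without that array (0.88, adjusted p = 0.00126). The second Gclm probe set did not show so low a replicate 4, at 0.04. Its LPS values of 0.04 to 0.28 lay above all untreated KO values, -0.87 to 0.03. Gclc had 0.86, 1.02, 0.17 and 0.32 in KO cultures with TNFa, against -0.48 to 0.83 with a median of 0.08, and its difference of 0.44 ± 0.22 did not pass (adjusted p = 0.208).

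The Gclc values differed by culture set. Over all treatments, KO set a ran from 0.14 to 1.12 and KO set b from -0.48 to 0.32, and with the set as a block the TNFa difference of 0.44 passed (adjusted p = 0.00223). In WT cultures, the 15 Gclc values ran from -0.38 to 0.07 and no treatment moved their mean by more than 0.11.

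Gsr encodes glutathione reductase, which regenerates reduced glutathione with NADPH. KO cultures with TNFa had 0.64, 0.32, -0.03 and 0.04, against -1.45 to -0.13 with a median of -0.64 in untreated KO cultures. The groups did not overlap, and Gsr rose by 0.89 ± 0.17 (1.85-fold, adjusted p = 0.000208), with differences of 1.02 in set a and 0.75 in set b that both passed. In WT cultures TNFa gave 0.60 and 0.75, against 0.64, 0.98, 1.07, 0.91 and 0.82 untreated, a difference of -0.21 ± 0.23 (adjusted p = 0.978). No WT treatment shifted Gsr by more than 0.21 in either direction.

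The thioredoxin arm is covered by Txnrd1, the cytosolic thioredoxin reductase, and Srxn1, sulfiredoxin, which repairs overoxidised peroxiredoxins. Srxn1 stood at 1.25, 0.82, 0.69 and 0.27 in KO cultures with TNFa, against -0.61 to -0.15 with a median of -0.25 in untreated ones. It rose by 1.10 ± 0.15 without overlap (2.14-fold, adjusted p = 1.73e-06), by 1.33 within set a and 0.87 within set b. Of its 4 probe sets, one correlates with the used one at only r = 0.306 and with the 18S probe set at r = 0.672, and it gave a difference of 0.35 ± 0.15 (adjusted p = 0.144). In WT cultures, both Srxn1 values of the probe set used lay above all untreated ones under each of the 5 treatments, with differences of 0.19 to 0.56, none of which passed. These comparisons share the same untreated arrays, and how many of all genes do so was not counted. Another Srxn1 probe set (r = 0.938 with the used one) overlapped the untreated range of -0.67 to 0.01. It did so with TNFa (-0.10 and 0.01) and with HA (-0.15 and 0.11).

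Txnrd1 values in KO cultures with TNFa were 1.07, 0.08, 0.23 and -0.37, against -1.56 to -0.04 with a median of -0.54 in untreated KO cultures. The lowest treated array lay inside the untreated range, and the rise of 0.94 ± 0.31 (1.92-fold, adjusted p = 0.0337) lost its call when any of 6 arrays was left out, untreated replicates 4, 7 and 8 and TNFa replicates 1, 2 and 3. The difference then lay between 0.67 with an adjusted p of 0.23, without TNFa replicate 1, and 1.00 with 0.0517, without TNFa replicate 2. Under cyclic loess it was 0.92 (adjusted p = 0.0509). Within set a it came to 1.23 (adjusted p = 0.0986) and within set b to 0.64 (adjusted p = 0.472). Another Txnrd1 probe set, which correlates with the used one at r = 0.811, did not overlap in this comparison. It had 0.26 to 0.57 in KO cultures with TNFa and -0.71 to -0.14 untreated. A further probe set overlapped, at -0.30 to 0.80 and -1.03 to -0.04.

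Nqo1 encodes NAD(P)H quinone dehydrogenase 1, which reduces quinones. It was the member that TNFa moved least in KO cultures, with 0.46, 0.16, 0.20 and -0.21 against -0.32 to 0.21 with a median of 0.12 untreated, a difference of 0.12 ± 0.24 (adjusted p = 0.827). TSG-6 gave -0.21, -0.28 and -0.75 and TSG-6 with HA gave -0.11, -0.24, -0.43 and -0.67, with differences of -0.44 ± 0.26 and -0.39 ± 0.24 (adjusted p = 0.464 and 0.358). With the culture set as a block these came to -0.46 and -0.39 and passed (adjusted p = 0.0164 and 0.0155).

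In WT cultures, Nqo1 separated the culture sets rather than the treatments. The 8 arrays of set a ran from -1.05 to -0.34 and the 7 of set b from 0.17 to 0.62, with no overlap, and each treated group holds 1 array of either kind. Once group means were removed, Nqo1 correlated with the 18S signal at r = 0.85 over the 15 WT arrays and at r = -0.10 over the 27 KO arrays. WT set b holds all 5 WT arrays with an 18S value above 1. Its other 2 arrays, untreated replicate 4 (18S at -0.14) and TSG-6 replicate 2 (18S at 0.57), had Nqo1 at 0.24 and 0.17, also above every array of set a.

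Mt1 and Mt2 are the metallothioneins that most tissues make. Treatments raised Mt2 in both genotypes and Mt1 in KO cultures, while none of the 5 WT treatments passed for Mt1 by the probe set used. The 2 genes are close in sequence, and how far their probes share transcripts was not tested. Mt1 had 0.60, 1.08, 0.63 and 0.88 in KO cultures with TNFa and 0.64, 0.98, 0.48 and 0.88 with LPS, against -0.41 to 0.32 with a median of -0.14 untreated. Neither treated group overlapped the untreated one, and Mt1 rose by 0.92 ± 0.18 with TNFa (1.89-fold, adjusted p = 0.000247) and by 0.87 ± 0.18 with LPS (1.83-fold, adjusted p = 0.00355). Without the arrays of high 18S signal the LPS difference was 0.71 (adjusted p = 0.276).

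TSG-6 with HA raised Mt1 in KO cultures, with 0.14, 0.73, -0.03 and 0.95, a difference of 0.57 ± 0.18 (adjusted p = 0.0353). This call was lost without any of 5 arrays, untreated replicates 2, 5 and 6 and treated replicates 2 and 4, with differences of 0.40 to 0.54, and it came to 0.20 without the arrays of high 18S signal (adjusted p = 0.71). Replicates 2 and 4 are those 18S arrays and the 2 highest values. TSG-6 alone gave 0.42, 0.50 and 0.45, all above the untreated range, with a difference of 0.58 ± 0.20 (adjusted p = 0.0857). The second Mt1 probe set, of the kind whose probes match more than one transcript, spread less and passed in all 5 KO treatments, with differences of 0.33 to 0.42, and in 4 of 5 WT treatments, with 0.37 to 0.79, HA being the exception at 0.37 (adjusted p = 0.296).

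Mt2 moved by small but tight steps in KO cultures. TNFa gave 0.41, 0.34, 0.40 and 0.29, against -0.21 to 0.05 with a median of -0.07 untreated, a rise of 0.43 ± 0.10 (1.35-fold, adjusted p = 0.00207). LPS gave 0.32, 0.14, 0.37 and 0.36, a rise of 0.37 ± 0.10 (1.29-fold, adjusted p = 0.0454), and TSG-6 with HA gave 0.29, 0.28, 0.31 and 0.35, a rise of 0.38 ± 0.10 (1.3-fold, adjusted p = 0.0103). The treated arrays of all 5 KO treatments lay above all 8 untreated ones, although the differences with TSG-6 and with HA, 0.30 each, did not pass (adjusted p = 0.119 and 0.276). With the culture set as a block these 2 passed (adjusted p = 0.00231 and 0.00241). The LPS call was lost when any of 9 of its 12 arrays was left out, untreated replicates 3 to 8 and LPS replicates 1, 3 and 4, with differences of 0.35 to 0.38 and adjusted p-values of 0.0568 to 0.168. Without the arrays of high 18S signal, LPS gave 0.38 (adjusted p = 0.117) and TSG-6 with HA gave 0.34 (adjusted p = 0.0547).

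In WT cultures, Mt2 was at -0.34 and -0.87 with TNFa, -0.27 and -0.68 with LPS, -0.33 and -0.66 with TSG-6, and -0.29 and -0.69 with TSG-6 and HA, against -1.11, -0.95, -0.89, -1.28 and -1.39 untreated. Every one of these treated arrays lay above all 5 untreated ones, and in each pair the array of set a was the higher. The rises were 0.52 ± 0.14 with TNFa (1.43-fold, adjusted p = 0.0284), 0.65 ± 0.14 with LPS (1.57-fold, adjusted p = 0.00588), 0.63 ± 0.14 with TSG-6 (1.55-fold, adjusted p = 0.0193) and 0.63 ± 0.14 with TSG-6 and HA (1.55-fold, adjusted p = 0.0118). Within set a the 4 differences were 0.65 to 0.71 and within set b 0.46 to 0.67. Each call was lost without replicate 1 of its treated group (0.25, 0.45, 0.46 and 0.43, in the order above), that with TNFa also without untreated replicate 4 or 5 (0.48 and 0.45) and that with TSG-6 also without untreated replicate 5 (0.57).

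Single members differed between the genotypes in both directions. Metallothioneins were higher in KO cultures in all 6 conditions. By the probe set used, Gsr, Txnrd1 and Slc7a11 were lower in 5, 4 and 3 of them. Untreated, 2 of the 10 were higher, against 21.3% of all genes, and 3 were lower, against 16.3%. A list of 10 genes is too short to set these counts apart from those shares. With LPS and with TSG-6 the counts were again 2 higher and 3 lower, against 13.4% and 10.6% of all genes with LPS, and 10.3% and 8.68% with TSG-6. With HA, 3 were higher (13.2% of all genes) and 1 lower (10.1%), and with TSG-6 and HA 2 were higher (12.0%) and 2 lower (9.61%). With TNFa, 5 were higher (13.6% of all genes) and none was called lower by the probe set used. Taken by probe set, 10 of the 20 were called higher and 2 lower.

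**Figure D3:**
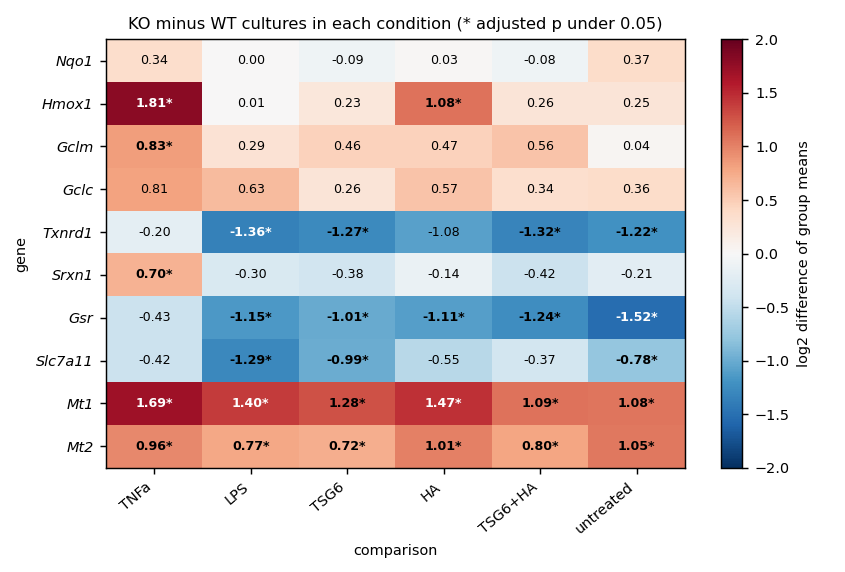
Log2 difference of group means, KO minus WT cultures, for each gene (rows) in each condition (columns), with asterisks at an adjusted p under 0.05; colour gives the same value as the printed number. For the probe set used, Mt1 and Mt2 are positive throughout and Txnrd1, Gsr and Slc7a11 negative throughout. The Mt2 differences with LPS and with TSG-6 turn to -0.06 and -0.02 under cyclic loess normalisation.

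Over all conditions, Mt1 ran from -0.41 to 1.25 on the 27 KO arrays with a median of 0.45, and from -1.66 to -0.43 on the 15 WT arrays with a median of -0.87. The ranges did not overlap even with the treatments mixed. KO minus WT differences were 1.69 ± 0.25 with TNFa (3.23-fold, adjusted p = 2.14e-06), 1.40 ± 0.25 with LPS, 1.28 ± 0.26 with TSG-6, 1.47 ± 0.25 with HA, 1.09 ± 0.25 with TSG-6 and HA, and 1.08 ± 0.17 untreated (2.11-fold, adjusted p = 1.5e-06). All 6 passed, and that with TSG-6 and HA was lost without WT replicate 1 of that group (0.88, adjusted p = 0.0523), without the arrays of high 18S signal (0.91, adjusted p = 0.136) and under cyclic loess normalisation (0.78, adjusted p = 0.0669).

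Mt2 ran from -0.21 to 0.41 on the KO arrays and from -1.39 to -0.27 on the WT arrays, again without overlap. Its differences were 0.96 with TNFa, 0.77 with LPS, 0.72 with TSG-6, 1.01 with HA, 0.80 with TSG-6 and HA, and 1.05 ± 0.09 untreated (2.07-fold, adjusted p = 1.36e-11), all past the threshold in the deposited values. Cyclic loess between arrays gave smaller values in the treated conditions. On centred values this method fits arrays against row means that carry the excess of KO arrays, so it cannot tell scaling from genotype. Under cyclic loess normalisation the difference turned to -0.06 with LPS and to -0.02 with TSG-6 and was 0.17 with TNFa, 0.16 with HA and 0.07 with TSG-6 and HA, with adjusted p-values of 0.45 to 0.954, while the untreated difference kept its call.

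Gsr separated the genotypes in the other direction. It ran from -1.45 to 0.64 on KO arrays with a median of -0.13 and from 0.60 to 1.14 on WT arrays with a median of 0.91, and the only KO array inside the WT range was a TNFa culture. The untreated difference of -1.52 ± 0.16 (0.347-fold, adjusted p = 4.1e-10) was the largest among the 10 genes, and the differences with LPS, TSG-6, HA and TSG-6 with HA were -1.15, -1.01, -1.11 and -1.24, all past the threshold. With TNFa it was -0.43 ± 0.24 (adjusted p = 0.22), while the second Gsr probe set had 0.01 to 0.35 in KO and 0.55 to 0.95 in WT cultures, without overlap. Under cyclic loess the untreated difference kept its call, and the other 4 shrank to between -0.53 and -0.24 and lost it. Those with LPS, HA and TSG-6 with HA were also lost without the arrays of high 18S signal, at -1.10, -1.04 and -1.15 (adjusted p = 0.0711, 0.0604 and 0.0724).

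Txnrd1 followed Gsr, with -1.56 to 1.07 on KO arrays (median -0.21) and -0.19 to 1.35 on WT arrays (median 0.88). Untreated cultures differed by -1.22 ± 0.28 (0.431-fold, adjusted p = 0.000636), and those with LPS, TSG-6 and TSG-6 with HA by -1.36, -1.27 and -1.32 (adjusted p = 0.0177, 0.0454 and 0.0235). These last 3 calls were each lost on leaving out either WT array of the group and on leaving out certain KO arrays, LPS replicate 2, TSG-6 replicate 2 or 3, and TSG-6 with HA replicate 4, with differences of -1.57 to -0.92 over all arrays left out in turn. All 3 were also lost under cyclic loess (-1.33, -1.24 and -1.25, adjusted p = 0.0554, 0.139 and 0.0883), and those with LPS and with TSG-6 and HA without the arrays of high 18S signal (-1.07 and -1.23, adjusted p = 0.258 and 0.2). The difference with TNFa was -0.20 ± 0.43 (adjusted p = 0.834) by the probe set used. Another Txnrd1 probe set had 0.26 to 0.57 in KO and 0.91 to 1.05 in WT cultures with TNFa, without overlap. A further one overlapped there, at -0.30 to 0.80 and 0.04 to 0.77. The former also lay apart with LPS (-0.29 to -0.07 in KO, 0.965 to 1.09 in WT) and with TSG-6 (-0.22 to 0.07 and 1.01 to 1.07).

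Slc7a11 ran from -0.71 to 0.53 on KO arrays and from -0.28 to 1.51 on WT arrays. By the probe set used, untreated cultures did not overlap and differed by -0.78 ± 0.14 (0.582-fold, adjusted p = 2.83e-05), though by -0.43 within set a and -1.28 within set b. With LPS the difference was -1.29 ± 0.22 (0.408-fold, adjusted p = 1.8e-05) and with TSG-6 -0.99 ± 0.23 (adjusted p = 0.00147). The TSG-6 call was lost without WT replicate 2 of that group, which left -0.56 (adjusted p = 0.222), and the LPS call without the arrays of high 18S signal, which left -0.88 (adjusted p = 0.0827). On the second Slc7a11 probe set untreated cultures overlapped, at -0.77 to -0.17 in KO and -0.38 to 0.155 in WT. With TNFa its mean was higher in KO than in WT cultures (0.61 and 0.225), opposite in sign to the probe set used.

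Hmox1 was called different between the genotypes with TNFa and with HA. With TNFa, KO cultures stood at 0.81 to 1.74 and WT cultures at -0.74 and -0.44, a difference of 1.81 ± 0.34 (3.5-fold, adjusted p = 9.86e-05) that passed without any 1 array and in both culture sets. With HA the difference was 1.08 ± 0.34 (adjusted p = 0.0182), and it was lost without either WT HA array (1.23 and 0.94), without KO HA replicate 2 (0.92), without the arrays of high 18S signal (1.10, adjusted p = 0.179) and under cyclic loess (1.00, adjusted p = 0.063). Under TNFa, Gclm and Srxn1 were also higher in KO cultures, by 0.83 ± 0.26 (1.78-fold, adjusted p = 0.0142) and 0.70 ± 0.22 (1.62-fold, adjusted p = 0.0158). The Gclm call was lost without WT TNFa replicate 2 (0.60, adjusted p = 0.266) and without the arrays of high 18S signal (0.50, adjusted p = 0.11), and that of Srxn1 without either WT TNFa array (0.72 and 0.68) or KO TNFa replicate 1 (0.53). Nqo1 and Gclc did not pass in any condition, with differences of -0.09 to 0.37 and 0.26 to 0.81, but with the culture set as a block Gclc was higher in KO cultures with TNFa (0.81, adjusted p = 0.0077) and with LPS (0.63, adjusted p = 0.0412).

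Beside all these genotype differences stand the endothelial markers, of which 7 of 9 were lower in untreated KO than in untreated WT cultures, with Lyve1 at -7.23 ± 0.20, Cldn5 at -3.69 ± 0.17 and Tek at -3.51 ± 0.19. The mean of the 9 markers was at most 0.25 on any KO array and at least 2.58 on any WT array. Of 10 fibroblast markers 4 were higher and 4 lower, and of 8 macrophage markers 2 were lower. Of 6 chondrocyte markers 3 were higher in untreated KO cultures, Comp by 4.42 ± 0.36, Sox9 by 1.56 ± 0.15 and Col2a1 by 1.44 ± 0.20, and the mean of the 6 ran from -0.10 to 0.50 over the KO arrays and from -1.36 to -0.87 over the WT arrays, without overlap. Which cells made the transcripts described here was not measured, and the part of the cell makeup in these differences was not tested. With TNFa in KO cultures the endothelial markers had a median difference of -0.04, and their mean ran from -1.29 to 0.21 in treated and from -1.36 to 0.17 in untreated cultures. The macrophage markers Cd14 and Csf1r rose with TNFa in KO cultures by 1.06 ± 0.15 and 0.84 ± 0.17, the other 6 did not pass, and the mean of the 8 ran from -0.06 to 0.21 in treated and from -0.44 to -0.08 in untreated cultures. Of 5 neutrophil markers S100a8 rose (1.46 ± 0.40), and the chondrocyte marker Sox9 and the fibroblast marker Fap fell (-1.36 ± 0.16 and -0.65 ± 0.23). The part of these cell types in the rise of the 8 antioxidant and metallothionein genes was not tested.

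Whether the treatments acted differently in the genotypes was tested directly, as the KO response minus the WT response. For TNFa, 0 of 10 passed, against 0.808% of all genes, while 5 had an unadjusted p under 0.05 (7.04% of all genes), namely Hmox1 (1.56 ± 0.41, adjusted p = 0.0668), Gsr (1.09 ± 0.28, 0.0606), Srxn1 (0.91 ± 0.26, 0.109), Gclm (0.79 ± 0.31, 0.424) and Mt1 (0.61 ± 0.30, 0.708). The median over the 10 genes was 0.70 beside -0.001 over all genes. Hmox1 passed without WT untreated replicate 1 (1.68, adjusted p = 0.0427) or KO untreated replicate 1 (1.66, 0.029), Srxn1 without KO TNFa replicate 4 (1.07, 0.0321), and Gsr when any of 6 arrays was left out, with 0.98 to 1.18 and adjusted p-values of 0.025 to 0.0487. With the culture set as a block, Hmox1 (1.57, adjusted p = 0.00721), Gsr (1.09, 0.0129) and Srxn1 (0.92, 0.0308) passed, 3 of 10 against 2.22% of all genes. Within the sets alone none passed, with Hmox1 at 1.64 in set a (adjusted p = 0.48) and 1.52 in set b (0.093). The counts of TNFa calls in KO and WT cultures, 8 and 1, thus stand beside a test of the difference that no member passed with all arrays and without the block.

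For the other agents, 0 of 10 passed by the limma test and 0 had an unadjusted p under 0.05, against 0.214% of all genes that passed for LPS, 0.0824% for TSG-6, 0.044% for HA and 0.181% for TSG-6 with HA. Adding HA to TSG-6 or TSG-6 to HA likewise moved 0 of 10, with 0 at an unadjusted p under 0.05. All genes that passed came to 0.0% for TSG-6 with HA against TSG-6 alone and 1.79% against HA alone in KO cultures, and to 0.0% and 0.0055% in WT cultures. In WT cultures these compare 2 arrays with 2. Differences for the combined treatment against HA alone in KO cultures ranged from -0.42 ± 0.28 for Nqo1 to 0.19 ± 0.35 for Txnrd1.

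Other genes of the same pathways were counted in lists drawn up with earlier results of these data known. With TNFa in KO cultures, where 6.71% of all genes rose and 7.32% fell, 8 of 20 further NRF2 target genes rose and 3 fell, with a median of 0.27 beside 0.01 over all genes. The leading ones were Slc48a1, a haem transporter, at 0.96 ± 0.08, Abcc4, an efflux pump, at 1.08 ± 0.11 and Txn1, thioredoxin, at 0.69 ± 0.10. Of 8 regulators of the pathway 3 rose, NRF2's own gene Nfe2l2 by 0.36 ± 0.08 and the small Maf partners Mafg by 0.73 ± 0.10 and Maff by 1.11 ± 0.19. In the list of NADPH supply, Pgd of the pentose phosphate pathway rose by 0.93 ± 0.13, while isocitrate dehydrogenase Idh1 dropped by 0.47 ± 0.10.

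Of 14 genes of the amino acid stress pathway under ATF4, 6 rose with TNFa in KO cultures (median 0.56), among them Asns, asparagine synthetase, by 0.87 ± 0.20, Phgdh, of serine synthesis, by 0.85 ± 0.22 and Atf4 by 0.68 ± 0.19. Slc7a11 is also known as an ATF4 target. Of 14 genes of zinc handling 4 rose, led by the zinc importers Slc39a10 at 1.15 ± 0.15 and Slc39a8 at 0.83 ± 0.17. Of 16 superoxide dismutases, peroxidases and peroxiredoxins 2 rose, beside 6.71% of all genes, mitochondrial Sod2 by 1.83 ± 0.13 and glutaredoxin Glrx by 0.99 ± 0.15. Sod2 rose in all 10 treatment comparisons, by 0.95 to 1.83 in KO and 0.96 to 1.54 in WT cultures, and is also a well-known target of NF-kB. Among 6 NADPH oxidase genes, the phagocyte subunits Cyba and Cybb rose by 0.39 ± 0.07 and 0.87 ± 0.18 and Nox4 dropped by 1.04 ± 0.24. The list of 10 genes of haem and iron handling is too short to set apart from those shares of all genes, with 1 that rose, biliverdin reductase B (Blvrb, 0.50 ± 0.14), and 2 that fell, haem oxygenase-2 (Hmox2, -0.25 ± 0.05) and the haem synthesis enzyme Alas1 (-0.47 ± 0.10).

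With TNFa in WT cultures, 1.41% of all genes rose and 1.15% fell. Of the 20 further NRF2 targets 2 rose and 1 fell, of the regulators 1 rose (Mafg, 0.51 ± 0.14), and the ATF4 and zinc lists had medians of 0.03 and 0.08. Slc48a1 and Abcc4 rose by 0.59 ± 0.11 and 0.57 ± 0.15 and Cyba by 0.68 ± 0.10. No gene of these 8 lists passed the test of the KO response minus the WT response, so their counts are not shown to differ between the genotypes. In KO cultures with LPS, Slc48a1, Txn1 and Abcc4 rose by 0.45 to 0.51, and the regulators and ATF4 genes had medians of 0.03 and 0.27. With TSG-6 in KO cultures the glutathione transferases Gstm1 and Gsta4 fell, with differences of -0.58 ± 0.10 and -0.71 ± 0.13, while Abcc4 rose by 0.50 ± 0.12. With TSG-6 and HA, Gstm1 and Gsta4 were at -0.56 ± 0.09 and -0.74 ± 0.12, and Aox1 of the same list was at -0.55 ± 0.10.

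Between untreated genotypes these lists also pointed both ways, where 21.3% of all genes were higher in KO cultures and 16.3% lower. Of the ATF4 list, 12 of 14 were lower in KO cultures (median -1.07 beside 0.03 over all genes), with Trib3 at -2.46 ± 0.24, the amino acid transporter Slc7a5 at -1.79 ± 0.19 and Ddit4 at -1.03 ± 0.11. Of the further NRF2 targets 12 of 20 were higher and 3 lower, with Gstm1 at 1.30 ± 0.09 and Slc48a1 at 1.20 ± 0.07 higher and Akr1b8 at -0.72 ± 0.08 lower. Among the regulators 1 of 8 was higher and 3 lower, Nfe2l2 itself at -0.64 ± 0.07. Of the zinc list 5 of 14 were higher, a share not tested against that of all genes, with Slc39a8 at 1.58 ± 0.16 and Slc39a10 at 0.72 ± 0.14, and 1 was lower, the metallothionein activator Mtf1 at -0.78 ± 0.13. Higher in KO cultures too were extracellular Sod3 at 1.49 ± 0.15 and Gpx3 at 1.51 ± 0.22, and the iron importer Slc11a2 at 1.52 ± 0.09. So were Gpx8 at 0.73 ± 0.08, Cyba at 0.83 ± 0.07 and Fth1 at 0.365 ± 0.05. Lower were Slc40a1 of the haem and iron list at -0.80 ± 0.12, Nox4 at -1.38 ± 0.22 and Taldo1 of the NADPH supply list at -0.59 ± 0.14.

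Arrays of the same group varied together in some of these genes. Once group means were removed, Txnrd1 correlated over the 42 arrays with Srxn1 at r = 0.84 and with Gsr at r = 0.74, and Hmox1 with Gsr at r = 0.73. Mt1 and Mt2 correlated at r = 0.85 over all arrays but at r = -0.32 within groups, and Nqo1 and Mt2 at r = -0.69 within groups. Arrays of the same group differ in culture set and in 18S signal, and the part of either in these correlations was not tested. Within the KO groups, correlation with the 18S signal was -0.64 for Mt2, -0.60 for Txnrd1 and Srxn1, -0.59 for Gclm and -0.56 for Slc7a11, and within the WT groups it was -0.90 for Mt2 and -0.79 for Gclm. Without the 15 arrays of high 18S signal, the TNFa count in KO cultures was again 8 of 10.

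**Figure D4:**
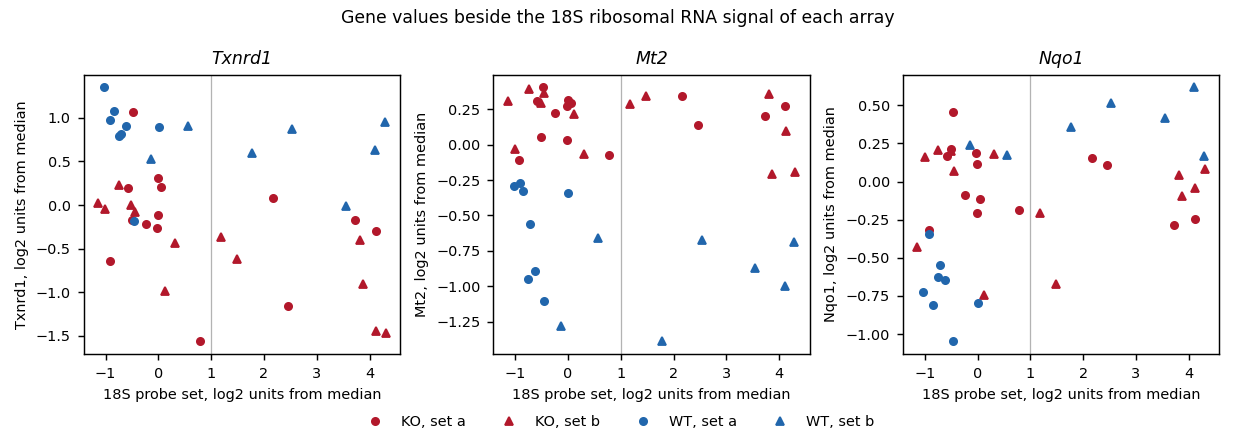
Txnrd1, Mt2 and Nqo1 (vertical axes) against the 18S ribosomal RNA probe set (horizontal axes) on each of the 42 arrays, all in log2 units from the probe set's median, with KO arrays in red, WT arrays in blue, set a as circles and set b as triangles. Arrays right of the grey line at 1 have a high 18S signal; Nqo1 lies between 0.17 and 0.62 on all WT arrays of set b, and KO and WT arrays separate in Mt2 at every 18S level.

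Across all 42 arrays, some other genes tracked single members closely. The nearest by Pearson correlation were Susd6 for Mt2 (r = 0.971), Cyb5b for Txnrd1 (r = 0.954), Tpm3 for Gsr (r = 0.944) and Slc9a3r1 for Mt1 (r = 0.931), the members whose genotypes lie apart. Next came Rcan1 for Hmox1 and Clec4e for Slc7a11 (both r = 0.873), Galnt18 for Gclc (r = 0.87), Arg2 for Srxn1 (r = 0.848), Gbe1 for Gclm (r = 0.842) and Hax1 for Nqo1 (r = 0.741). The efflux pump Abcc4 was among the 3 nearest genes of both Hmox1 (r = 0.808) and Gclm (r = 0.817).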

How the data were processed

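The authors deposited 1 table of log2 expression values for 45101 probe sets on 42 one-colour Affymetrix arrays, which the submitters' processing notes credit to RMA. Each row of the deposited log2 table is centred, its median over the arrays being within 1e-05 of 0. Base 2 is inferred, the widest row spanning 9.81, and array medians lay between -0.0239 and 0.0252. Signal over background is unknown, so no filter on dim probe sets could be made. Precision is set by how many arrays each group holds.

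Of the probe sets, 932 list more than one gene and 9211 no gene, and these were not used. Of the other 34958, 34754 matched RefSeq names by gene number. The probe set with the largest SD stood for each gene, avoiding those that correlated above 0.7 with the 18S probe set where the gene had another. This left 18194 genes. limma 3.58.1 in R 4.3.3 (lmFit and eBayes, 30 residual and 4.23 prior degrees of freedom) gave each of the 12 groups its own mean under 1 shared spread, and Benjamini-Hochberg adjustment ran over all genes separately in 25 comparisons. The fit was tested on simulated data. Culture sets were read from probe sets that leave at least 1 log2 unit empty between arrays.

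The members, lists and tests were chosen with earlier results of these data known. Named are all 10 members, the 3 genes of each further list with the smallest adjusted p past the threshold, and for each member the 3 most correlated genes, of which the text gives the first. Alternatives comprised the mean of a gene's probe sets, every probe set alone, cyclic loess between arrays, leaving out the flattest genes (lowest SD), each array in turn or the arrays with an 18S value above 1, a block for replicate number or culture set, a fit of the compared groups alone, robust eBayes and, added after seeing the data, each culture set alone.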

Additional observations from a re-analysis of the deposited data

Results flagged for a closer look

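In 60 combinations of a gene and a group of 4 to 10 arrays, 2 held an array farther from its neighbours than the spread of the group would make likely, where chance alone gives about 1 in 20. Hmox1 in WT untreated replicate 1 was at -1.304, below the other 4 untreated WT arrays at -0.789 to -0.588. Slc7a11 in KO untreated replicate 2 was at -0.317, above the other 7 untreated KO arrays at -0.705 to -0.523. Both belong to the untreated groups with which the treated cultures of their genotype were compared. No Slc7a11 call was lost without its array. No Hmox1 call rests on untreated WT cultures, so none could be lost. The KO minus WT difference in the TNFa response of Hmox1, 1.56 with all arrays, passed without WT untreated replicate 1 (1.68, adjusted p = 0.0427 by limma).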

How the results depend on the processing

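Of the 47 pairs of member and comparison past the threshold, 29 kept their call without each array in turn. All 47 kept their direction under every alternative except Mt2 under cyclic loess, where KO minus WT turned to -0.064 with LPS and -0.022 with TSG-6. On centred values this method fits arrays against row means that carry the excess of KO arrays. The count of 8 members raised by TNFa in KO cultures stayed between 6 and 9.

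Other counts moved by over 1.5 times. In KO cultures, the replicate block gave 4 for LPS, 1 for TSG-6 and 1 for TSG-6 with HA against HA, and in WT cultures 3 for TNFa, 5 for LPS, 2 for TSG-6, 1 for HA and 3 for TSG-6 with HA, besides 1 for the TNFa response. Replicate numbers did not pair the cultures: 15 of 29 treated arrays correlated above 0.1 with the untreated array of their number (-0.764 to 0.757), and 4 correlated best with it. The culture set as a block gave 5 for LPS, 3 for TSG-6, 3 for HA and 7 for TSG-6 with HA in KO cultures, 1 for HA in WT cultures and 3 for the TNFa response. Set a alone gave 1 for LPS, 0 for HA and 1 for TSG-6 with HA in KO cultures, 0 for TSG-6 in WT cultures, and 2 between genotypes with TSG-6 and with TSG-6 and HA. Set b alone gave 1 for LPS and 0 for HA in KO cultures and 0 for TNFa, LPS and TSG-6 in WT cultures.

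Cyclic loess gave 1 for TSG-6 in KO cultures and, between genotypes, 3 with LPS, 2 with TSG-6, 2 with HA and 0 with TSG-6 and HA. Mean probe sets gave 4 for LPS, 2 for TSG-6, 2 for HA and 5 for TSG-6 with HA in KO cultures, 2 for TSG-6 with HA in WT cultures and 2 for the TNFa response. Every probe set alone gave 1 for LPS in KO cultures. The compared groups alone gave 1 for TSG-6 and 0 for HA in KO cultures and 0 for TNFa, LPS, TSG-6 and TSG-6 with HA in WT cultures. Without arrays of high 18S signal the counts were 1 for LPS, 1 for TSG-6, 0 for HA and 0 for TSG-6 with HA in KO cultures, 1 for LPS in WT cultures, and between genotypes 2 with LPS, 2 with HA and 1 with TSG-6 and HA, on 27 arrays. Leaving out the flattest genes gave 1 for the TNFa response. Except where stated, causes were not tested.

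Without each array in turn, KO counts ran from 1 to 2 for LPS, 0 to 1 for TSG-6, 0 to 2 for HA and 1 to 4 for TSG-6 with HA. WT counts ran from 1 to 2 for LPS and 0 to 1 for TNFa, TSG-6 and TSG-6 with HA. Genotype counts ran from 3 to 6 with TNFa, 3 to 5 with TSG-6 and 2 to 4 with TSG-6 and HA, and the TNFa response from 0 to 2.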
